A study of Bos taurus with 6 samples.

Results

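The members bta-miR-374a and bta-miR-374b are 2 of the 359 known Bos taurus miRNAs, and of 706 miRNAs in all, that were counted in extracellular vesicles (EVs) of cow serum. EVs are small membrane-bound particles shed by cells into body fluids. The pair was found by name in the count table. It was selected on the counts of bta-miR-374a scaled to known miRNA counts, chosen because this miRNA was higher in every tested library than in any control library, and bta-miR-374b was taken along as its relative. The difference of bta-miR-374a between the diets is therefore given as a description, without a test. The samples were serum of 6 female Holstein cows in mid lactation, at 101 ± 10 days in milk per the labels, with 1 small RNA library per cow. The groups differed in their diet over 30 days, which for the 3 control cows was a total mixed ration (TMR). The 3 tested cows ate whole cotton seed and soybean hull in place of some of the alfalfa hay, and their ration also held less corn silage. All cows were kept in climate-controlled chambers, and their EVs were bound to a membrane column. Serum holds EVs from many tissues, so more vesicles from a source and more miRNA per vesicle cannot be told apart.

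MiRNAs guide silencing proteins to messenger RNAs, and the bases from position 2 to 8, the seed, do most of the pairing. MiRNAs with the same seed form a family whose target sites largely overlap. In mammals the miR-374 genes lie on the X chromosome within FTX, together with the genes of miR-421 and miR-545. FTX is a long non-coding RNA gene in the region of the X-inactivation centre. In cancer cells, miR-374a is known as a repressor of inhibitors of the Wnt pathway.

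The sequences listed in the deposited table are shown here because they define the family and its near relatives. The seed is in capitals and all are written 5′ to 3′.
bta-miR-374a: tTATAATAcaacctgataagtg
bta-miR-374b: aTATAATAcaacctgctaagtg
bta-miR-374c: tTACAATAcaacctgataagt
novel82_mature: tGATAATAcaacctgataagt
bta-miR-421: aTCAACAGacattaattgggcgc
Both members are 22 nt long and share the seed TATAATA. No other miRNA of the 706 has this seed. They differ by T1A and A16C, counted from 1 at the 5′ end with the base of bta-miR-374a first, and are identical at the other 20 positions. The listed bta-miR-374c lacks the last base of bta-miR-374a and differs from it by T4C, which lies inside the seed. The newly predicted novel82_mature also lacks the last base and differs by T2G. These 3 are the nearest sequences to bta-miR-374a, each at an edit distance of 2, and the next, bta-miR-200b, lies at 8. The tool that counted the reads is not given in the sources used here. Whether a read with a sequencing error could be counted for the wrong member was not tested.

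The reads were matched by the authors to ARS-UCD1.2. In the later assembly ARS-UCD2.0, a single non-coding gene on chromosome X, LOC104970537, holds 5 miRNA genes. They are MIR374A, MIR374B, MIR374C, MIR421 and MIR545. MIR374C lies inside MIR374A, and strands are not given there.

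Known miRNA counts, the total used for scaling, ran from 1226928 to 2088249 per library. Levels are given in CPM, here the counts per 1000000 known miRNA counts of the library. Counts of bta-miR-374a ran from 2648 to 5158 and those of bta-miR-374b from 1105 to 2112. The 95% exact binomial intervals of the single libraries reached 2.74% to 3.83% to either side for bta-miR-374a and 4.29% to 5.94% for bta-miR-374b. They treat each read as independent and leave out the spread between cows. PCR copies of a molecule are not independent, so the intervals may be too narrow even for counting error.

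Within each cow, bta-miR-374a was the more abundant member. Its mean over the 6 cows was 2034 ± 559 CPM (SD, n = 6), at rank 39 of the known miRNAs, and its rank in single libraries ran from 36 to 43. The mean of bta-miR-374b was 833 ± 163 CPM (SD, n = 6), at rank 56, with ranks from 48 to 58. The neighbours of bta-miR-374a in this order were bta-miR-181a with 2064 ± 208 CPM and bta-miR-200b with 1890 ± 265 CPM (SD, n = 6). Those of bta-miR-374b were bta-miR-103 with 862 ± 61.1 CPM and bta-miR-30c with 833 ± 113 CPM (SD, n = 6). All 4 of these gaps are smaller than the spread between cows. Since both members have the same length, their levels need no scaling per length. Adapter ligation can favour some sequences, and its part in the gap between the members was not tested.

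The count of bta-miR-374a over that of bta-miR-374b was 2.54, 2.16 and 2.05 in control cows 1, 2 and 3. In tested cows 1, 2 and 3 it was 2.92, 2.36 and 2.44. The mean log2 ratio was 1.26 ± 0.18 (SD, n = 6), a 2.40-fold excess of bta-miR-374a that was present in 6 of 6 cows (two-sided exact sign-flip permutation test, p = 0.0312). This is the smallest p that 6 cows allow. Control cows had a mean log2 ratio of 1.16 ± 0.16 and tested cows one of 1.36 ± 0.17 (SD, n = 3 each), and the ratios of the groups overlapped. The difference between the groups contains the values that chose bta-miR-374a and was not tested.

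**Figure D1:**
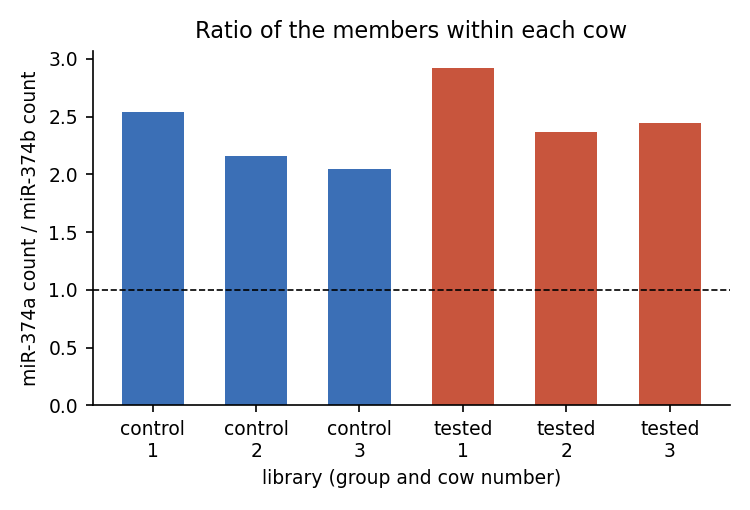
Count of bta-miR-374a divided by the count of bta-miR-374b in each library (bars, control blue and tested red), with the dashed line at equal counts. All 6 bars stand above the line, from 2.05 in control cow 3 to 2.92 in tested cow 1.

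The level of bta-miR-374a was 2030, 1390 and 1330 CPM in control cows 1, 2 and 3. It was 2633, 2352 and 2470 CPM in tested cows 1, 2 and 3. The nearest values across the groups were 2352 in tested cow 2 and 2030 in control cow 1, and the other control cows lay far lower. The means were 1584 ± 388 and 2485 ± 141 CPM (SD, n = 3), a ratio of tested to control of 1.57. In edgeR, which scaled the counts with TMM factors and was run on the 623 miRNAs with a summed count of 10 or more, the log2 fold change was 0.60 with a standard error of 0.25.

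For bta-miR-374b the levels were 798, 645 and 650.1 CPM in control cows 1, 2 and 3. In tested cows 1, 2 and 3 they were 901, 995 and 1011 CPM. The groups did not overlap for this member either, and control cow 1 was again the highest of its group. The means were 698 ± 87.1 and 969 ± 59.8 CPM (SD, n = 3), a ratio of 1.39 (two-sided exact permutation test, p = 0.1). With 3 cows against 3 this test cannot go lower. The log2 fold change was 0.42 with a standard error of 0.30 (adjusted p = 0.625 from edgeR over 623 miRNAs, unadjusted p of 0.192), so this difference did not pass. It comes from the same cows as that of bta-miR-374a and is not separate evidence of its direction.

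As background, each tested cow lay above every control cow for 18 of the 312 known miRNAs tested, 5.77%, which include both members. Among the 107 known miRNAs with a mean of at least 100 CPM it was 9, 8.41%. Calls here required a log2 fold change of more than 1 in either direction and an unadjusted p under 0.05, which 20 of the 623 miRNAs, 3.21%, reached. Neither member did, since both log2 fold changes were below 1.

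**Figure D2:**
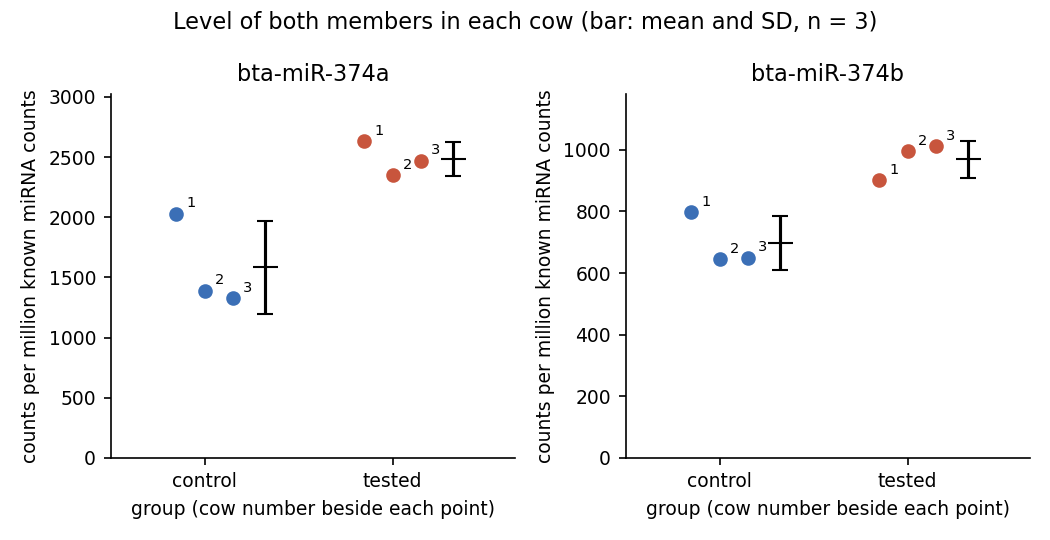
CPM of known miRNA counts for bta-miR-374a (left) and bta-miR-374b (right) in each cow, control blue and tested red, with the mean and SD of 3 cows. Tested cows sit between 2352 and 2633 on the left and between 901 and 1011 on the right, above the highest control cow at 2030 and 798.

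The total that the counts were divided by decided whether the groups overlapped. The deposited table of scaled values divides the same counts by all clean reads of the library, of which known miRNAs made up 10.8%, 15.7% and 18.0% in control cows 1, 2 and 3 and 8.50%, 15.6% and 8.63% in tested cows 1, 2 and 3. On this scale (RPM, reads per 1000000 clean reads) control cows had 218.7, 218.4 and 239.7 RPM of bta-miR-374a and tested cows 224.0, 366.8 and 213.3 RPM. Tested cow 2 stood apart, and the other 2 tested cows lay among or below the control cows. The means were 226 ± 12.2 and 268 ± 85.7 RPM (SD, n = 3), a log2 ratio of 0.25.

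For bta-miR-374b control cows had 86.0, 101.3 and 117.1 RPM and tested cows 76.6, 155.2 and 87.3 RPM. The means were 101.5 ± 15.6 and 106.4 ± 42.6 RPM (SD, n = 3), a log2 ratio of 0.07 (two-sided exact permutation test, p = 0.9). In RPM, each tested cow lay above each control cow for 5 of the 312 known miRNAs, 1.60%, and neither member was among them. The scale moved other miRNAs as well. The median log2 ratio of the 107 known miRNAs with at least 100 CPM was 0.09 in CPM and -0.37 in RPM. Relative to this median, bta-miR-374a was higher by 0.56 and 0.62 and bta-miR-374b by 0.39 and 0.44.

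**Figure D3:**
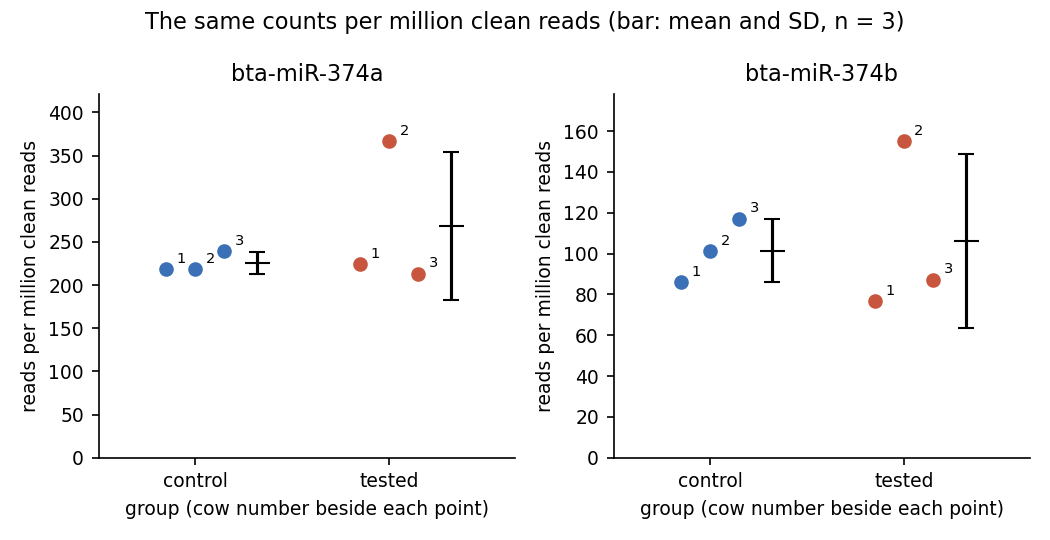
The same counts in RPM of clean reads, bta-miR-374a left and bta-miR-374b right, by cow, with the mean and SD of 3 cows per group. Tested cow 2 is the highest point in both panels, at 366.8 and 155.2 RPM, and tested cows 1 and 3 lie among or below the control cows.

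In CPM, cow 1 stood highest in its group for bta-miR-374a and for the summed miRNAs of red cells, white cells, platelets and vessels, and liver. For the epithelial sum, control cow 2 and tested cow 3 were the highest of their groups. The level of bta-miR-374b in CPM was highest in cow 1 in the control group, while tested cow 1 was the lowest of its group. The sum of bta-miR-451, bta-miR-144 and bta-miR-486, miRNAs abundant in red blood cells, was 28434, 16300.3 and 13468 CPM in control cows 1, 2 and 3. It was 59608, 10840.2 and 8621 CPM in tested cows 1, 2 and 3, so the groups overlapped. Cow 1 of each group also had the highest ratio of bta-miR-374a to bta-miR-374b. When these 3 miRNAs were taken out of the total, bta-miR-374a had 1617 ± 410.4 and 2557 ± 219 CPM (SD, n = 3) and bta-miR-374b 712 ± 94.9 and 994.6 ± 32.7 CPM (SD, n = 3). Without tested cow 1 the edgeR log2 fold changes were 0.55 and 0.47.

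The other lists of cell type markers had overlapping sums. White blood cell miRNAs (4 in the table of 5 listed) ran from 196 to 386 CPM in control cows and from 124 to 439 in tested cows. Those of platelets and vessels (5 of 5) ran from 19.1 to 109.9 and from 82.5 to 329, those of liver (3 of 3) from 1068 to 1590 and from 1130 to 2024, and those of epithelium (6 of 6) from 74400.1 to 88914 and from 87883 to 93931. Of the 21 miRNAs of the 5 lists that are in the table, 1 passed the threshold in edgeR, against 0.962% of the 312 known miRNAs. It was bta-miR-199a-3p of the list of platelets and vessels, which was named after its values were seen. Of the 6 epithelial miRNAs, 2 had every tested cow above every control cow, against 5.77% of the 312 known miRNAs and 8.41% of the 107 with at least 100 CPM. They were bta-miR-141 and bta-miR-200a, with log2 fold changes of 0.37 and 0.27, and were named after their values were seen. The groups overlapped for the rest of the list. There the log2 fold changes were 0.21 for bta-miR-200b, -0.10 for bta-miR-200c, 0.27 for bta-miR-429 and -0.22 for bta-miR-205. The part of these lists in the levels of the miR-374 members was not tested.

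The miRNAs closest in level are given as a description. Since bta-miR-374a was selected for its difference, a high place among them follows in part from that choice. Within 2-fold of the mean of bta-miR-374a there were 16 other known miRNAs, with log2 fold changes from -0.79 to 0.25 and a median of 0.00. Within 2-fold of bta-miR-374b there were 24, from -0.79 to 0.64 with a median of 0.02. Above bta-miR-374b were bta-miR-143, a miRNA of smooth muscle, and bta-miR-27a-3p, both chosen after their values were seen. The spread between cows of a group, as an SD of log2 levels, was 0.24 for bta-miR-374a against a median of 0.23 in its 16 neighbours. For bta-miR-374b it was 0.14 against a median of 0.32 in its 24 neighbours, 3 of which had a smaller spread.

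**Figure D4:**
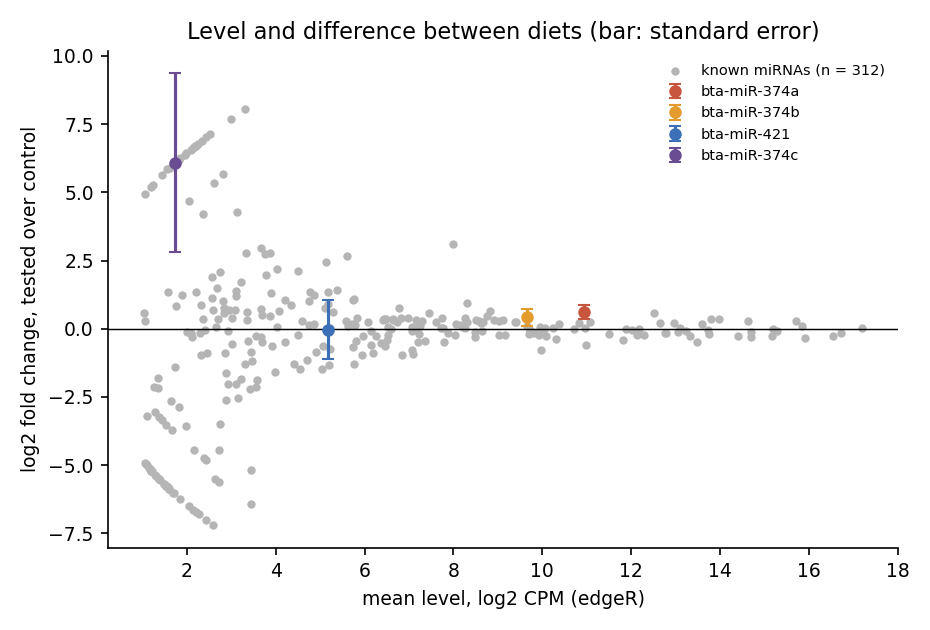
Mean level (log2 CPM from edgeR, scaled by TMM) and log2 fold change of tested over control for the 312 known miRNAs tested (grey), with bta-miR-374a, bta-miR-374b, bta-miR-421 and bta-miR-374c coloured and their standard errors as bars. At 0.60 and 0.42, 0 of the 16 known miRNAs within 2-fold of the level of bta-miR-374a lie above it (a place that the choice of bta-miR-374a favours) and 2 of the 24 within 2-fold of bta-miR-374b, bta-miR-421 lies at -0.04, and bta-miR-374c, at the left, has counts in 1 library.

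The other miRNAs of the locus had far fewer counts than the members. For bta-miR-421, whose gene neighbours MIR374B, the control cows had 44, 94 and 65 counts and the tested cows 10, 71 and 138. The tested cows held both the lowest and the highest value. The means were 36.0 ± 9.54 and 37.3 ± 29.0 CPM (SD, n = 3), with a log2 fold change of -0.04 and a standard error of 1.09 (adjusted p = 0.994 from edgeR). The sign of this value changed with the scaling, to 0.05 with library sizes alone. The tested cows ranged from 8.15 to 66.1 CPM. A change of the size seen for bta-miR-374a lies within 1 standard error.

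For bta-miR-374c, 25 counts were found in tested cow 2 and 0 in the other 5 cows, where a count of 0 allows up to 1.44 to 2.45 CPM. In tested cow 2 they came to 0.565% of the bta-miR-374a count. Against a floor of 3 counts over the control group it was at least 8.88-fold higher in the tested group, on 1 cow alone (adjusted p = 0.448 from edgeR). The similar novel82_mature gave 1, 1 and 6 counts for control cows and 2, 3 and 0 for tested cows. Neither sequence that differs from bta-miR-374a in its seed made up as much as 1% of it in any library. Of the 2 locus miRNAs tested, 0 passed the threshold in edgeR or at an unadjusted p below 0.05, as in DESeq2 and limma. Over all 312 known miRNAs the threshold was passed by 0.962% in edgeR, 1.92% in DESeq2 and 2.88% in limma, and 3.21% had an unadjusted p below 0.05 in edgeR, so nothing is read from 0 of 2. The miRNA bta-miR-545 was looked for by name but was not among the known miRNAs counted.

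In ARS-UCD2.0, a gene name was found for 355 known miRNAs, and 30 besides the members lie on the X chromosome alone. In edgeR, 27 of them, with bta-miR-421 and bta-miR-374c of the locus among them, were tested and 0 passed the threshold. An unadjusted p below 0.05 was reached by 0 of the 27, against 10 of all 312 known miRNAs tested, 3.21%. DESeq2 passed 1 of the 27, bta-miR-450b, and limma 2, bta-miR-450b and bta-miR-500, which were named after their values were seen. Over all 312 known miRNAs the same threshold was passed by 3 in edgeR, 0.962%, by 6 in DESeq2, 1.92%, and by 9 in limma, 2.88%. Every tested cow lay above every control cow for 4 of the 27, bta-miR-450b, bta-miR-500, bta-miR-502a and bta-miR-532, against 18 of the 312, 5.77%. The median log2 fold change of the 27 was 0.23, against -0.01 over all 312 known miRNAs, and 16 of the 27 were positive. Many had few counts, with 6 of the 27 found in a single library. The median was also 0.23 with those at their bound, and 0.02 without tested cow 2. Among the 8 X-linked miRNAs with at least 100 CPM the values ran from -0.22 to 0.25 with a median of 0.00. Of these, bta-miR-502a and bta-miR-532 were higher in every tested cow, with log2 fold changes of 0.23 and 0.25, against 9 of all 107 known miRNAs at this level, 8.41%. Both belong, as does bta-miR-500, to a cluster of miRNA genes known elsewhere on the X chromosome. The miRNA bta-miR-532 was chosen after its values were seen.

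Base composition was examined because both members are rich in A and T. These bases made up 72.7% of bta-miR-374a and 68.2% of bta-miR-374b, against a median of 54.2% over the 359 known miRNAs. As much A and T as bta-miR-374a was found in 12 known miRNAs, itself included, and as much as bta-miR-374b in 41. Of the 17 other known miRNAs with at least 70% A and T, 13 were tested and edgeR passed 0, also at an unadjusted p below 0.05. DESeq2 passed bta-miR-3613a and bta-miR-450b and limma bta-miR-450b, miRNAs named after their values were seen. The shares over all 312 known miRNAs were 0.962% in edgeR, 1.92% in DESeq2 and 2.88% in limma. The median log2 fold change of the 13 was 0.35, with 8 of 13 positive and values from -5.50 to 7.03. None of the 17 reached 100 CPM, and the median turned to -0.82 without tested cow 2 and to -0.75 at a cut-off of 75%.

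Likeness of profiles was measured as the root mean square difference of log2(CPM + 1), each miRNA centred on its own mean over the 6 cows, among the known miRNAs with at least 10 CPM. Of 183 miRNAs, the closest to bta-miR-374a was bta-miR-374b, at 0.17. The next were bta-miR-340 at 0.20, bta-miR-143 at 0.23 and bta-miR-96 at 0.26, against a median of 0.65 over all 183. For bta-miR-374b the closest were bta-miR-96 at 0.14, bta-miR-502a at 0.16, bta-miR-30b-5p at 0.17 and bta-miR-374a at 0.17, against a median of 0.59. These profiles share the 6 libraries and their totals. That of bta-miR-374a also holds the difference between groups for which it was selected, so its closest profiles follow in part from that choice. Of these miRNAs other than the members, bta-miR-30b-5p and bta-miR-502a had every tested cow above every control cow, against 5.77% of the 312 known miRNAs, and the groups overlapped for bta-miR-340, bta-miR-143 and bta-miR-96. Likeness to the members favours such an order, so nothing is read from this count. Control cows had 539, 370 and 381 CPM of bta-miR-340 and tested cows 707, 455 and 530, with the highest value of each group in cow 1, as for bta-miR-374a. Of bta-miR-96, control cows had 1469, 1253 and 1054 CPM and tested cows 1346, 1523 and 1592.

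Across the tools and settings tried, the log2 fold change of both members stayed positive. With groups that do not overlap, leaving out a cow could hardly turn the direction, so this is no sign of stability. It ran from 0.52 without control cow 2 to 0.76 without control cow 1 for bta-miR-374a. For bta-miR-374b it ran from 0.34 without tested cow 2 to 0.48 without control cow 1, and the unadjusted p ran from 0.10 to 0.382. When the counts of bta-miR-374a, bta-miR-374b and bta-miR-374c were merged into 1 feature, a setting added after the data were seen, the log2 fold change was 0.55 with a standard error of 0.23.

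**Figure D5:**
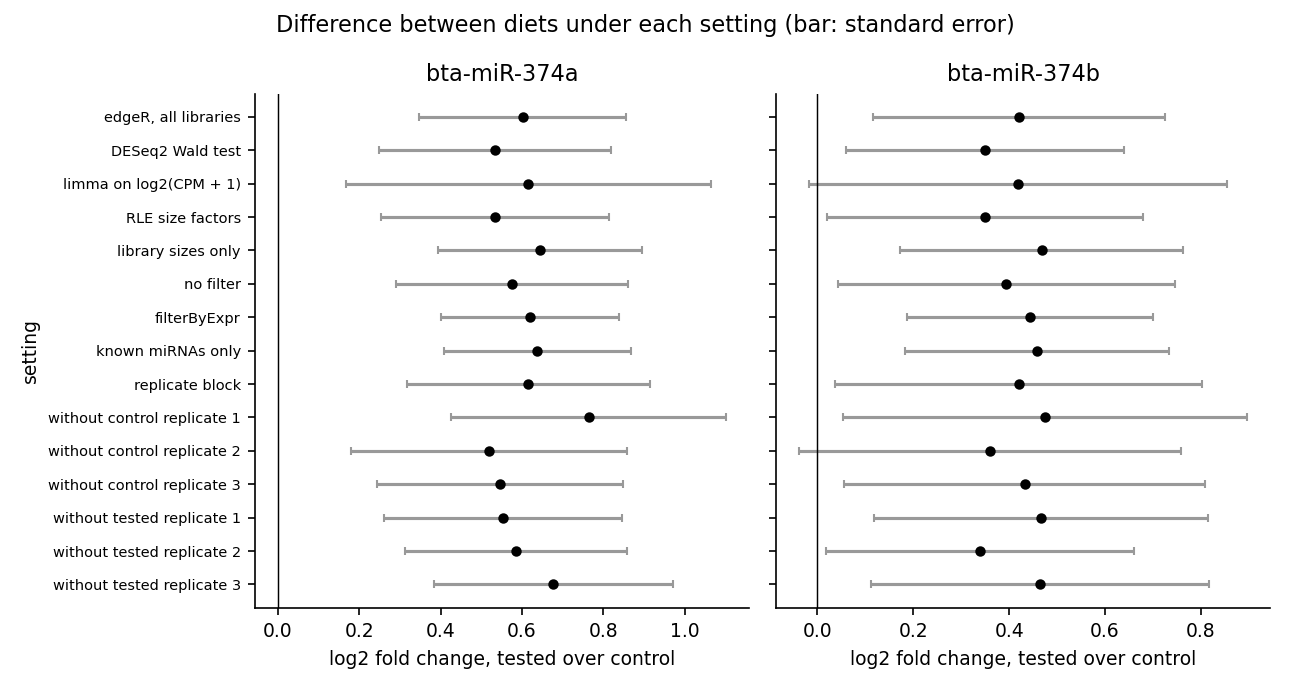
The log2 fold change of tested over control for bta-miR-374a (left) and bta-miR-374b (right) under each tool, scaling, filter and left-out library, with its standard error as a bar. All points lie to the right of 0, from 0.52 to 0.76 on the left and from 0.34 to 0.48 on the right.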

How the data were processed

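Small RNAs of serum EVs were sequenced in 6 libraries, 3 per group. The authors kept reads of a set length range, matched them to the bovine genome (ARS-UCD1.2, with cutadapt 1.14 and Bowtie in the submitters' processing notes), removed other RNA classes and took known miRNAs from miRBase. The authors deposited whole-number counts without normalization. The deposited table headed TPM holds RPM, each value being the count divided by the clean reads of its library. Columns with the authors' own fold changes, standard errors and p-values, and the table of miRNAs they called, were not used.

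Counts were tested in R 4.3.3 with edgeR 4.0.16 (TMM factors, quasi-likelihood F test) on the 623 miRNAs with a summed count of at least 10, and p-values were adjusted by Benjamini and Hochberg over all of them. Standard errors are the log2 fold change divided by the square root of F. A call needed a log2 fold change of more than 1 in either direction and an unadjusted p under 0.05, as printed on the study's heat map. DESeq2 1.42.0 and limma 3.58.1 on log2(CPM + 1) were alternatives, with other scalings, filters, the replicate number as a block, and each library left out. The tools were tested on simulated data. Levels, ratios (0.5 added to each count before the log2) and exact tests used Python 3.11.15, pandas 2.3.3, NumPy 2.4.6 and SciPy 1.17.1, and plots Matplotlib 3.10.9. Sequences are those deposited with the counts. MiRNAs were named by a rule: the members, the listed miRNAs of their locus, sequences with the same seed or nearest by edit distance, the 4 closest profiles, the neighbours in level, and bta-miR-486. Others are named as members of the marker lists or, where the text says so, after their values were seen. Members, lists and tests were chosen with earlier results of these data known.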

Additional observations from a re-analysis of the deposited data

How the results depend on the processing

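The log2 fold changes of both members were positive, and bta-miR-374b stayed below the threshold, under all tools, scalings, filters and left-out libraries tried. The direction is no sign of stability, because bta-miR-374a was selected for groups that do not overlap and those of bta-miR-374b do not overlap either. With single cows left out they ran from 0.52 to 0.76 for bta-miR-374a and from 0.34 to 0.48 for bta-miR-374b. As log2 ratios of mean levels in CPM they ran from 0.54 to 0.87 and from 0.42 to 0.58, but fell to 0.249 and 0.0681 when scaled to clean reads, since known miRNAs made up a smaller share of clean reads in tested cows 1 and 3. The log2 ratio of bta-miR-374a to bta-miR-374b ran from 1.203 to 1.31, where 5 cows allow no p below 0.0625. The number of miRNAs past the threshold was 20, and ran from 17 to 23 with single cows left out. It was 26 with DESeq2, 34 with limma, 13 with filterByExpr, 6 with known miRNAs only (3 of the known in the joint fit) and 12 with the replicate block. No pairing of cows by replicate number was seen, but 3 cows per group cannot exclude it. Deviations of cows with the same number had correlations from -0.06 to -0.02, and 0 of 6 cows correlated best with its own number. With the block the log2 fold changes were 0.62 and 0.42. Medians of the lists rested on few counts. With single cows left out the median of the locus list ran from -0.11, without tested cow 2, the sole cow with bta-miR-374c, to 3.59 (3.02 with all cows, 1.56 with bta-miR-374c at its bound). That of X-linked miRNAs ran from 0.0187, without tested cow 2, to 0.248. That of A/U-rich miRNAs was 0.35 with all cows, 1.137, 1.57 and 2.84 without control cow 1, 2 or 3, -0.82 without tested cow 2, 0.90 without tested cow 3, and -0.75 at a cut-off of 75%. Counting error was larger for bta-miR-421, with 10 to 138 counts a library, than for the members, with 1105 or more.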
